A study of Homo sapiens with 6 samples.

Results

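Removal of silencer 2 in addition to silencer 1 was examined in 4 of the 6 chromosome conformation capture (4C-seq) libraries analysed here, chosen by their labels. In 2 of them (DKO) the K562 cells lacked silencers 1 and 2 by their labels, and in the other 2 (S1KO) silencer 1 alone. The excisions could not be checked at their sites in the reads, and a search for fragments without reads in DKO is given at the end. K562 is an established human chronic myeloid leukaemia cell line. The 2 empty-vector libraries (EV), untreated by their labels although the protocol lists them with the cells put through CRISPR excision, are given beside them for reference. The design text calls the replicates biological, but no label says whether a line was 1 clone or a pool, nor where the silencers lie. An effect of losing silencer 2 therefore cannot be told apart from a difference between the S1KO and DKO lines.

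Silencers are regulatory DNA elements that lower the activity of genes they contact, and many of them carry the repressive histone mark H3K27me3, which the enzyme EZH2 deposits. In 4C-seq, crosslinked chromatin is cut, here with HindIII and then DpnII, and religated. The fragments joined to 1 chosen fragment, the viewpoint, are amplified and sequenced, so read counts rank the partners of that viewpoint. The viewpoint here is the FGF18 locus. Its product, fibroblast growth factor 18, is a secreted signalling protein of skeletal and lung development. Contacts of any locus fall steeply with distance along the chromosome, so profiles are compared at equal distance.

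The viewpoint fragment is chr5:170851908-170853009 (hg19), the chr5 fragment with most reads summed over the 6 libraries. In EV replicate 1 and S1KO replicate 2 the fragment chr5:170835262-170840025 had more, with 5326 reads against 5073 and 5923 against 5556. The side towards the centromere is called "below" and the side towards the telomere "above". By the gene order in GRCh38.p14, the protein-coding genes below FGF18 are, outward, NPM1 (the nucleolar protein nucleophosmin), TLX3 (a homeobox transcription factor), RANBP17, GABRP (a subunit of the GABA-A receptor), KCNMB1, KCNIP1, LCP2 (an adaptor of T cell receptor signalling), C5orf58, FOXI1, INSYN2B and DOCK2 (an activator of Rac in blood cells). Above it follow SMIM23, FBXW11 (the substrate-binding subunit of a ubiquitin ligase), STK10 (a protein kinase), EFCAB9, UBTD2, SH3PXD2B (a podosome scaffold), NEURL1B, DUSP1 (a phosphatase of MAP kinases), ERGIC1, RPL26L1, ATP6V0E1, CREBRF, BNIP1 and NKX2-5 (a cardiac transcription factor). The 25 genes of the list used, which holds FGF18 and all of these but C5orf58, were matched by symbol. Gene positions on hg19 were not used here, so changes are given by coordinate and distance, and no window is assigned to a gene.

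Within 2 Mb of the viewpoint, leaving out the 3 fragments within 10 kb, 917 HindIII fragments had a read in any library. The S1KO libraries held 131098 and 107152 reads there and the DKO libraries 241066 and 271861, against 68303 and 65464 in EV. These were 10.3% and 8.65% of all reads in S1KO, 13.7% and 20.9% in DKO and 9.64% and 3.41% in EV. Contacts below are therefore given as shares, as reads per 1000 reads within 2 Mb of the same library. Plain reads and other scalings are named where they are used. The number of fragments with a read overlapped between S1KO, with 739 and 647, and DKO, with 691 and 813. In EV it was 709 and 445. On this number and on the percentage within 2 Mb, EV replicate 2 was the lowest of the 6 libraries, which limits comparisons with EV. The labels name no molecular identifiers, so a high count can come from few ligation events.

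On the telomeric side of FGF18, towards FBXW11 and STK10, the DKO libraries held a smaller share of reads beyond 250 kb than the S1KO libraries and a larger share within 250 kb. From 250 to 500 kb above the viewpoint the S1KO libraries held 133 and 120.2 reads per 1000 and the DKO libraries 75.2 and 68.2, or 126 ± 8.82 against 71.7 ± 4.98 (SD, n = 2 each). From 500 to 1000 kb above, S1KO held 159.7 and 164 and DKO 88.5 and 97.8, or 162 ± 3.39 against 93.2 ± 6.55. From 1000 to 2000 kb above, S1KO held 65.2 and 72.7 and DKO 33.2 and 45.0. The DKO level was 0.567, 0.575 and 0.567 times that of S1KO in these 3 bands, so the relative deficit was nearly the same from 250 kb to 2 Mb. In each band both DKO libraries lay below both S1KO and both EV libraries. The EV values overlapped with those of S1KO from 250 to 500 kb (134 and 118). From 500 to 1000 kb (178 and 173) and from 1000 to 2000 kb (80.5 and 73.6) both EV libraries lay above both S1KO libraries. For each of the 3 bands an exact two-sided permutation test gave p = 0.3333, and 2 libraries against 2 allow no smaller value. Scaled to all chr5 reads outside the 10 kb in place of those within 2 Mb, the 3 differences from S1KO were log2 -0.53, -0.51 and -0.52. The order against EV depends on this scaling, since from 250 to 500 kb EV replicate 2, at 37.5 reads per 1000 chr5 reads, then lay below DKO at 42.0 and 39.5. From 500 to 1000 kb it lay at 55.1, between DKO at 49.4 and 56.7, and from 1000 to 2000 kb at 23.4, between DKO at 18.5 and 26.1.

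Closer in, DKO held more. From 10 to 100 kb above the viewpoint S1KO held 132 and 111 reads per 1000 and DKO 173 and 171, and from 100 to 250 kb above S1KO held 151 and 158 and DKO 207 and 193. Both DKO libraries exceeded both S1KO libraries in each of these bands, at 1.41 and 1.29 times the S1KO level (exact permutation p = 0.3333 for each). These inner differences rest on how many reads the fragments got, since all 15 fragments of the first band and 34 or 35 of the 35 in the second had reads in every S1KO and DKO library. With each fragment's reads capped at the library's 90th percentile the difference became -3.71 and -5.20 reads per 1000. At that cap 12 to 14 of the 15 fragments and 17 to 21 of the 35 were cut back in S1KO and DKO. The outer differences kept their direction with the cap. By fragments with a read they were -6.72, -19.5 and -8.60 per 1000 such fragments, from the nearest band outward. From 1000 to 2000 kb above, the groups overlapped on that count (exact permutation p = 0.667).

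**Figure D1:**
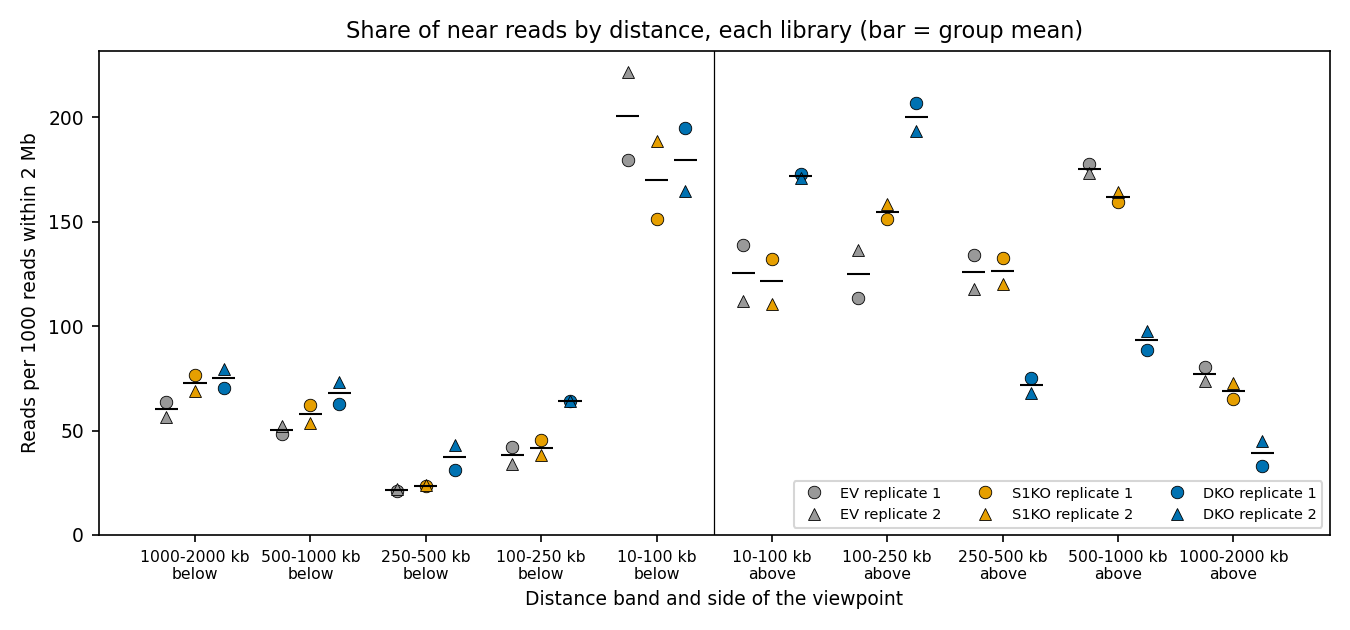
Reads per 1000 reads within 2 Mb (vertical axis, linear) in 10 bands of distance below and above the viewpoint (horizontal axis), 1 point per library, with a bar at each group's mean (n = 2). The DKO points lie above those of S1KO from 10 to 250 kb above the viewpoint and below them in the 3 bands from 250 to 2000 kb above, where they hold 33.2 to 97.8.

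On the centromeric side, towards NPM1 and TLX3, in no band were both DKO libraries below both S1KO libraries. From 100 to 250 kb below the viewpoint S1KO held 45.3 and 38.1 reads per 1000 and DKO 64.2 and 64.4, 1.54 times as much. From 250 to 500 kb below, S1KO held 23.3 and 23.8 and DKO 31.2 and 43.1, and the EV libraries 21.1 and 21.9. From 500 to 1000 kb below the DKO libraries, at 62.8 and 73.1, lay just above S1KO, at 62.5 and 53.7. The bands from 10 to 100 kb and from 1000 to 2000 kb below overlapped between the groups (exact permutation p = 0.667 for each). Scaled to chr5 reads, both DKO libraries exceeded both S1KO libraries in these as well, with 108.6 and 95.4 against 72.6 and 85.2 per 1000 chr5 reads in the inner band and 39.3 and 46.1 against 36.7 and 31.1 in the outer. The lower share of DKO beyond 250 kb was thus seen on the telomeric side, and at the same distances on the centromeric side DKO was higher than S1KO or overlapped with it.

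Dividing the reads above by those below at equal distance needs no scaling of the libraries. From 250 to 500 kb the S1KO libraries held 5.69 and 5.05 reads above for each read below and the DKO libraries 2.41 and 1.58 (difference -1.46 on the log2 scale, SE 0.32). From 500 to 1000 kb the ratios were 2.56 and 3.06 in S1KO and 1.41 and 1.34 in DKO (log2 -1.03, SE 0.14), and from 1000 to 2000 kb 0.854 and 1.05 against 0.472 and 0.566 (log2 -0.88, SE 0.20). From 100 to 250 kb, where DKO was higher on both sides, the groups stood at 3.34 and 4.16 against 3.22 and 3.00. In these 4 bands both DKO libraries lay below both S1KO libraries (exact permutation p = 0.3333 for each, the smallest possible). The ratio from 10 to 100 kb went the other way, with 0.874 and 0.587 in S1KO and 0.888 and 1.04 in DKO (log2 0.42, SE 0.31). The 3 outer differences were -1.27, -0.90 and -0.86 with capped reads, and -0.35, -0.29 and -0.22 by fragments with a read.

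A measure of the reach on the telomeric side, chosen after the data had been seen, gave the same ordering. The distance that held 50% of the reads above the viewpoint was 317 and 366 kb in S1KO and 161 kb in both DKO libraries, against 405 kb in both EV libraries. The reads from 100 to 250 kb above amounted to 0.518 and 0.557 times those from 250 to 1000 kb in S1KO, and to 1.26 and 1.17 times in DKO (log2 difference 1.18, SE 0.078). In EV this ratio was 0.364 and 0.468. The exact permutation p for DKO against S1KO was 0.3333 for both measures. Both measures were smaller with other counts. The distance was -180.3 kb in DKO relative to S1KO with reads as deposited and -37.6 kb with capped reads, and by fragments with a read it differed by 7.10 kb in the other direction. The log2 ratio was 0.35 with capped reads and 0.045 by fragments with a read.

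**Figure D2:**
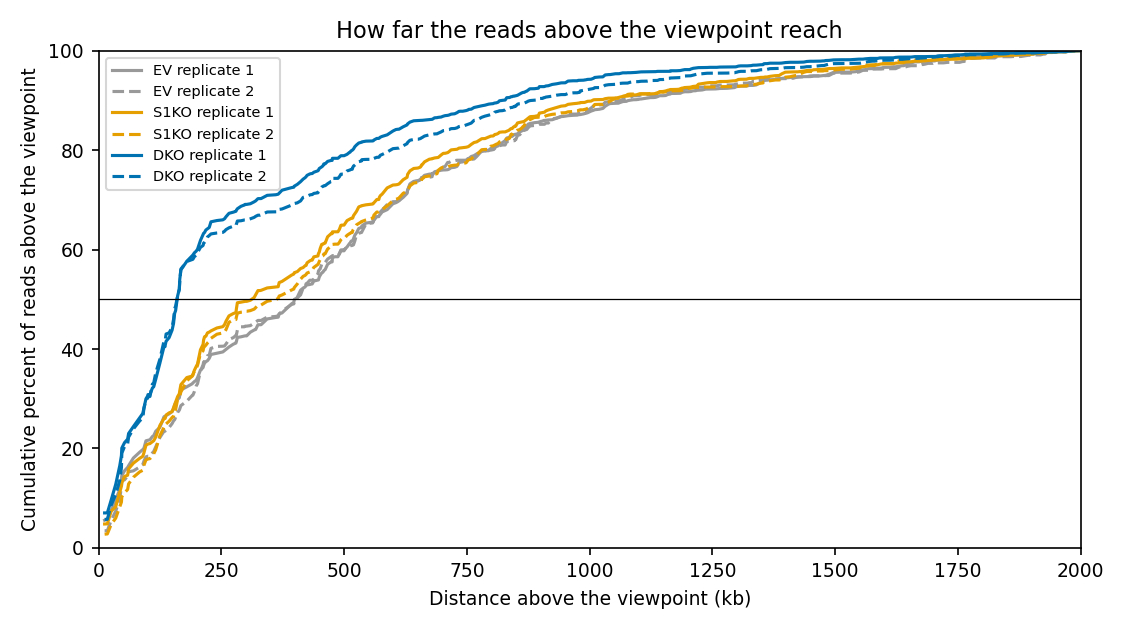
Cumulative percent of the reads above the viewpoint (vertical axis) against distance from it in kb (horizontal axis), 1 line per library, with replicate 2 dashed. Both DKO lines cross 50% at 161 kb, ahead of the S1KO lines at 317 and 366 kb and the EV lines at 405 kb.

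At a resolution of 50 kb, reads in 80 windows were tested with edgeR's quasi-likelihood test in 1 fit over all 6 libraries, and 12 windows passed an adjusted p of 0.05. Lower in DKO than in S1KO were 9 windows (11.2% of the 80), all of them above the viewpoint between 250 kb and 1400 kb. Higher in DKO were 3 windows (3.75% of the 80). Of the 35 windows from 250 kb to 2 Mb above, 34 had a log2 fold change below 0, with a median of -0.86 against -0.20 over all 80. In 23 of these 35 both DKO libraries lay below both S1KO libraries, while the share over all 80 windows was 33.8%. Below the viewpoint 30 of 40 windows had a log2 fold change above 0, 1 of them past the threshold, and in 9 both DKO libraries lay above both S1KO libraries, against 16.2% of the 80.

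The directions depend in part on the scaling. The median window stood at log2 -0.20 with reads within 2 Mb, at -0.10 with reads within 10 Mb, at -0.040 with TMM, at 0.0033 with DESeq2 size factors and at 0.10 with chr5 reads. The calls were, in this order, 3 higher and 9 lower, 4 and 5, 1 and 1, 4 and 1, and 4 and 0. With chr5 reads 30 of the 35 windows from 250 kb to 2 Mb above still had a log2 fold change below 0, with a median of -0.57. No window passed without S1KO replicate 1 or without DKO replicate 1, 1 passed without DKO replicate 2 and 7 without S1KO replicate 2, while DESeq2 called 18.

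**Figure D3:**
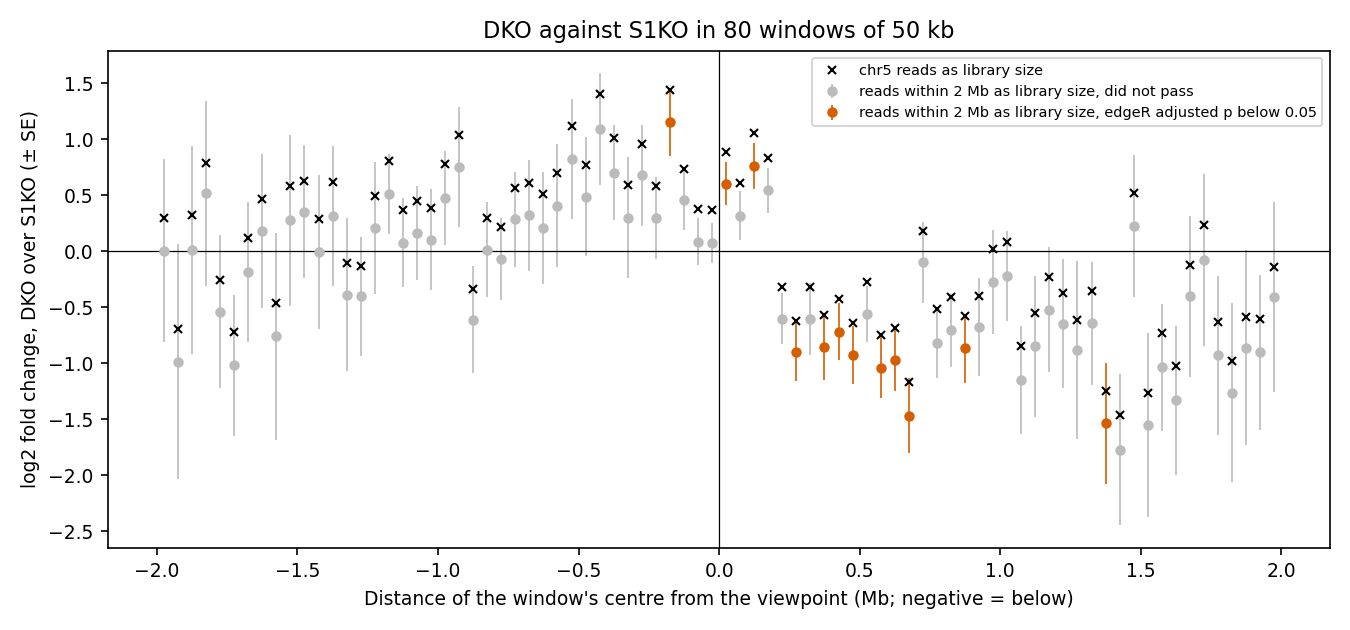
Log2 fold change of DKO over S1KO with its standard error (vertical axis) in 80 windows of 50 kb by distance from the viewpoint in Mb (horizontal axis). Orange points passed edgeR's adjusted p of 0.05 and crosses show the same windows scaled to chr5 reads. Beyond 250 kb above the viewpoint 34 of 35 points lie below 0, and 30 of the 35 crosses.

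Of the 15 windows from 250 to 1000 kb above the viewpoint 8 passed as lower, and in 13 both DKO libraries lay below both S1KO libraries. In the window chr5:171402458-171452457, 550 kb above, S1KO held 25.5 and 24.3 reads per 1000 and DKO 11.8 and 12.5, with 25.1 and 27.3 in EV. Its log2 fold change was -1.04 (SE 0.27, edgeR adjusted p = 0.0079), and it lay between -1.08 and -0.999 with any 1 library left out. The next window, chr5:171452458-171502457, held 21.9 and 23.0 in S1KO and 12.1 and 10.8 in DKO, an edgeR adjusted p of 0.0091 at log2 -0.97 (SE 0.27). Both had tight replicates, and in neither did a DKO library come near an S1KO library.

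The window chr5:171302458-171352457, 450 kb above, held 35.1 and 28.7 in S1KO and 14.9 and 18.6 in DKO (log2 -0.93, edgeR adjusted p = 0.0091). Nearer to the viewpoint, chr5:171202458-171252457 held 19.7 and 17.4 against 10.7 and 9.82, and chr5:171252458-171302457 held 26.3 and 32.6 against 20.4 and 15.5 (edgeR adjusted p = 0.041 for both). Also lower were chr5:171102458-171152457 (34.3 and 28.9 against 18.7 and 15.1, log2 -0.90, edgeR adjusted p = 0.010) and chr5:171502458-171552457. The latter had the lowest p of all windows, with 16.9 and 18.2 in S1KO, 4.14 and 8.54 in DKO and 13.6 and 14.9 in EV. Its edgeR adjusted p was 0.0037, at log2 -1.47 (SE 0.34). Its log2 fold change moved more than that of the window at 550 kb, running from -2.08 to -1.04 with 1 library left out. It still passed with TMM and with capped reads (edgeR adjusted p = 0.014 and 0.0050), where the window at 550 kb did not (0.13 for both). With chr5 reads neither passed (edgeR adjusted p = 0.16 and 0.35). Farther out, chr5:171702458-171752457 and chr5:172202458-172252457 passed at log2 -0.87 and -1.54 (edgeR adjusted p = 0.041 for both). In each of the 9 lower windows both DKO libraries were below both S1KO libraries. Their log2 fold changes stayed below 0 under every alternative that keeps the window. These were the 5 scalings and tests, capped reads, fragments with a read, other viewpoint zones, the filter, the blocks and each library left out. The count of fragments with a read cannot decide the direction here. In chr5:171202458-171252457 all 7 fragments had reads in every S1KO and DKO library, and that count still gave -0.12. Its median over all 80 windows was -0.11.

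The 3 higher windows lay within 200 kb of the viewpoint. The window chr5:170952458-171002457, 100 to 150 kb above, held 43.4 and 53.5 reads per 1000 in S1KO, 79.7 and 84.3 in DKO and 38.0 and 41.1 in EV. Its edgeR adjusted p was 0.0087, at log2 0.76 (SE 0.21). Adjacent to the viewpoint, chr5:170852458-170902457, held 83.8 and 64.3 against 116 and 109.6, with an edgeR adjusted p of 0.020 at log2 0.61 (SE 0.19). With only the viewpoint fragment left out this window stood at log2 0.50 and did not pass (edgeR adjusted p = 0.062). With 25 kb left out it stood at 0.65 and passed (0.0043). Below the viewpoint, chr5:170652458-170702457 held 9.91 and 10.6 in S1KO and 25.02 and 20.6 in DKO, with 12.6 and 14.2 in EV. Here the edgeR adjusted p was 0.0079, at log2 1.15 (SE 0.30). With capped reads that last window stood at log2 1.28, the one 100 kb above at 0.14 and the one next to the viewpoint at -0.15. Farther out above the viewpoint, chr5:171002458-171052457 stood at log2 0.54 and chr5:171052458-171102457 at -0.60, neither past the threshold (edgeR adjusted p = 0.050 and 0.055). With capped reads they stood at -0.096 and -0.23, so the distance at which the sign turned differed with the cap.

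**Figure D4:**
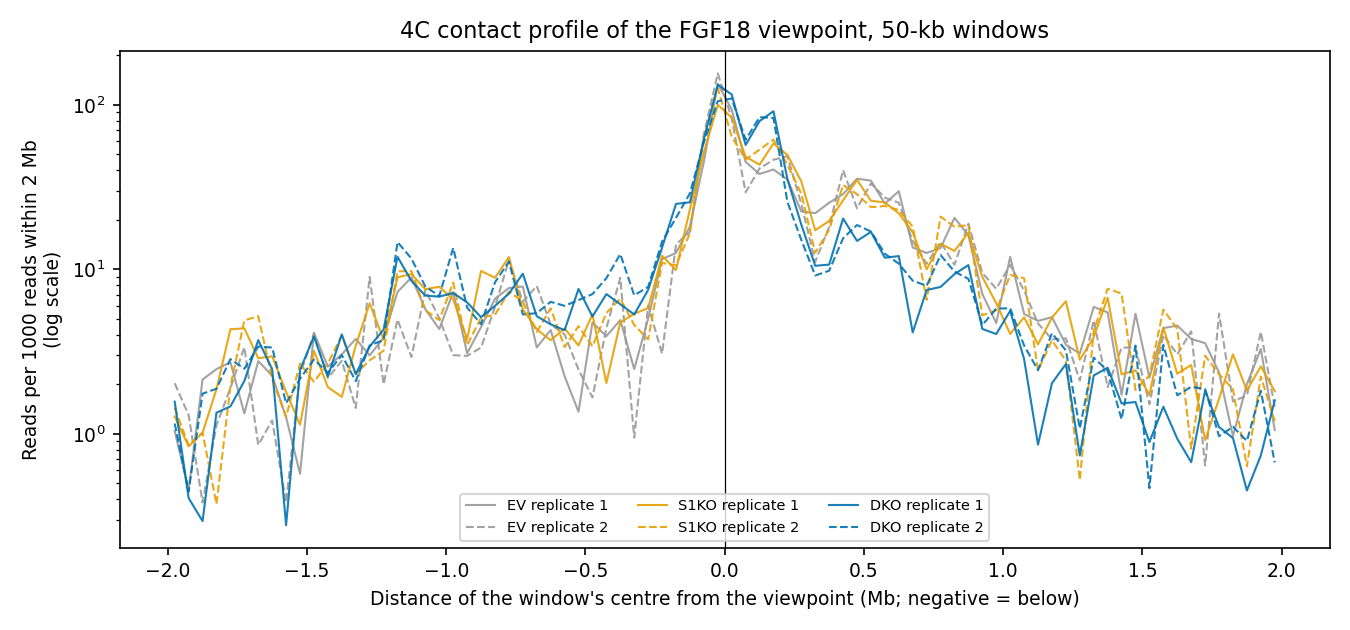
Reads per 1000 reads within 2 Mb (vertical axis, log scale) in 50-kb windows by distance from the viewpoint in Mb (horizontal axis), 1 line per library, with replicate 2 dashed. The DKO lines lie above those of S1KO from 100 to 200 kb above the viewpoint and below them in the windows from 200 to 500 kb above.

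Of 789 fragments with at least 10 reads in at least 2 libraries, 0 passed edgeR's adjusted p (0% of those tested), an unadjusted p below 0.05 was seen in 35, and DESeq2 called 2. Counted by order alone, both DKO libraries lay below both S1KO libraries in 28 of 57 fragments from 250 to 500 kb above, 49 of 122 from 500 to 1000 kb and 51 of 209 from 1000 to 2000 kb. Over all 917 fragments that share was 20.2%. The opposite order held in 3, 7 and 16 of these fragments, against 15.8% over all. The lower share was spread over many fragments: the fragment with most reads held 5.26% to 7.62% of a library's reads from 250 to 500 kb above in S1KO and DKO. Below the viewpoint both DKO libraries were higher in 19 of 47 fragments from 100 to 250 kb and in 19 of 73 from 250 to 500 kb, and lower in 7 and 4.

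Fragments on which DKO was higher and lower are given as examples, chosen after the values were seen. The fragment chr5:170983340-170987680, 133 kb above the viewpoint, held 9.02 and 10.8 reads per 1000 in S1KO and 19.2 and 21.2 in DKO. At 167 kb, chr5:171017792-171021950 held 7.96 and 5.41 against 10.98 and 14.5. At 179.5 kb, chr5:171021955-171042009 overlapped between the groups, with 9.16 and 14.2 against 10.03 and 8.75. At 207 kb, chr5:171055025-171064475 held 18.4 and 15.0 in S1KO and 10.1 and 6.15 in DKO. At 265 kb, chr5:171114363-171121318 held 6.89 and 9.16 against 3.95 and 2.07. These 5 are examples and do not place the turn, since of the 35 fragments from 100 to 250 kb above 14 were higher in both DKO libraries, 10 lower in both and 11 overlapped.

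**Figure D5:**
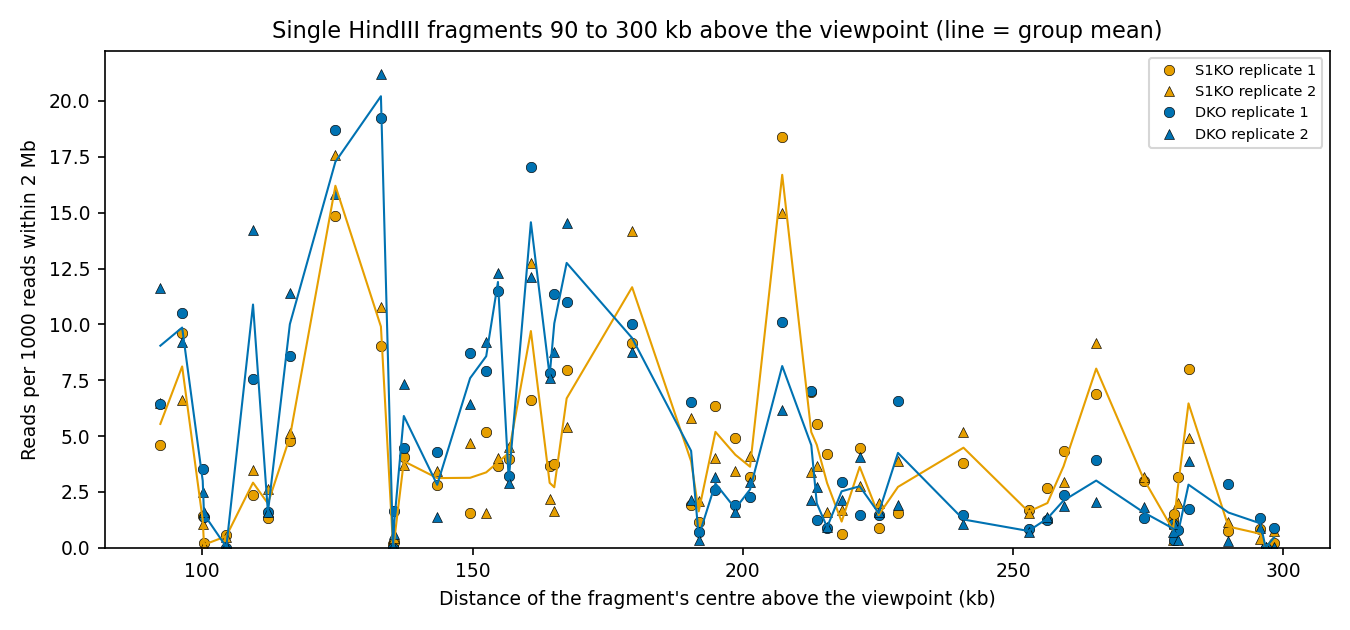
Reads per 1000 reads within 2 Mb (vertical axis, linear) of single HindIII fragments 90 to 300 kb above the viewpoint (horizontal axis, kb), 1 point per S1KO or DKO library, with lines through the group means (n = 2). The DKO line is the higher one at 133 and 167 kb and the lower one at 207 and 265 kb.

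The 6 fragments with the lowest p were all higher in DKO, and none passed. The lowest belonged to chr5:170960981-170962712, 109 kb above the viewpoint, with 311 and 371 reads in S1KO and 1820 and 3868 in DKO, an edgeR adjusted p of 1 at log2 1.90 (SE 0.53). In shares that fragment held 2.37 and 3.46 per 1000 in S1KO, 7.55 and 14.2 in DKO and 4.17 and 4.06 in EV. At 165 kb above, chr5:171017382-171017787 had 493 and 178 reads in S1KO and 2734 and 2379 in DKO. Its shares were 3.76 and 1.66 per 1000 in S1KO, 11.3 and 8.75 in DKO and 3.21 and 1.39 in EV. The other 4 lay below the viewpoint, and in 3 of them S1KO was nearly or wholly without reads while EV was not. The fragment chr5:170659586-170665206, 190.1 kb below, held 0.13 and 0 reads per 1000 in S1KO, 1.86 and 2.27 in DKO and 1.90 and 2.40 in EV, so its DKO share was that of EV. The fragments chr5:170205155-170206348 and chr5:170215851-170216182, 647 and 636 kb below, had 0 reads in both S1KO libraries. They had 150 and 183 and 62 and 156 in DKO, or at least 25.5-fold and 16.3-fold higher when each S1KO library is set to 3 reads, and 32 and 107 and 34 and 88 in EV. In shares these 2 fragments held 0.62 and 0.67 and 0.26 and 0.57 per 1000 in DKO, and 0.47 and 1.63 and 0.50 and 1.34 in EV. The last, chr5:170774352-170774448, had 66 and 67 reads in S1KO and 915 and 724 in DKO. Its shares were 0.50 and 0.63 per 1000 in S1KO, 3.80 and 2.66 in DKO and 1.63 and 2.83 in EV. The S1KO libraries had fewer reads within 2 Mb, and the part of depth in these differences was not tested.

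Fragments lower in DKO were longer by median than those higher in DKO, to a degree that varied with the stretch. The 185 fragments lower in both DKO libraries had a median length of 4046 bp, the 145 higher in both 2087 bp and the 587 that overlapped 2629 bp. From 250 to 1000 kb above, the 77 lower fragments had a median of 3124 bp and the 10 higher ones 726.5 bp. Below the viewpoint, from 100 to 1000 kb, the 19 lower ones had 4046 bp and the 56 higher ones 2306.5 bp. From 1000 to 2000 kb below the medians were close, at 2429 bp for the 23 lower and 2217.5 bp for the 38 higher ones. From 100 to 250 kb above, the 11 overlapping fragments were longest, at 5633 bp, against 2821.5 bp for the 10 lower and 1584.5 bp for the 14 higher ones. The part of fragment length in the differences was not tested.

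Counting each fragment with a read once, in place of its reads, gave 0 windows past edgeR's adjusted p (0% of 80) and 0 at an unadjusted p under 0.05. On this measure 15 of the 15 windows 250 to 1000 kb above stood below 0, with a median of -0.12 on the log2 scale against -0.11 over all 80, so this count did not set these windows apart. Over 50-kb windows of all chr5, 0 of 3091 passed edgeR's adjusted p (0%), an unadjusted p below 0.05 was seen in 81, and DESeq2 called 18.

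The authors' own calls within 2 Mb were taken at their q-value below 0.05 for each library. They numbered 17 and 15 fragments in S1KO, 8 and 19 in DKO and 11 and 5 in EV. Of these 12 were called in both S1KO libraries, 8 in both DKO libraries and 7 in all 4. The calls shared by both libraries of a group reached less far above the viewpoint in DKO than in S1KO, and least far in EV. The farthest fragment called in both S1KO libraries lay 207 kb above the viewpoint and the farthest in both DKO libraries 133 kb above. In both EV libraries it lay 12.1 kb above, although 50% of the EV reads above were reached only at 405 kb. The reach of these shared calls thus did not follow that of the shares. By single library the farthest call above lay at 588 and 265 kb in S1KO and at 133 and 167 kb in DKO. In EV replicate 1 it lay at 393 kb, farther than in either DKO library, and in EV replicate 2 at 12.1 kb. Called in both S1KO and in neither DKO library were 3 fragments, chr5:170804582-170813634, chr5:171021955-171042009 and chr5:171055025-171064475. Called in both DKO and in neither S1KO library was 1, chr5:170881642-170892718, 34.7 kb above, with 5.95 and 8.18 reads per 1000 in S1KO, 18.4 and 12.5 in DKO and 14.4 and 11.5 in EV. These calls were made for each library on its own, so they describe overlap and were not tested.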

How the data were processed

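The read counts per HindIII fragment were used as deposited by the authors, 1 file per library, listing fragments with at least 1 read. The submitters' processing notes name Bowtie2 2.2.5 and the build hg19. The interaction caller is not given in the sources used here. The q-values are the authors' own per library. A column the authors headed RPMs was treated as a score and not used. Unlisted fragments were counted as 0. Fragments were placed by their midpoint.

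For windows and fragments the quasi-likelihood test of edgeR 4.0.16 was run (R 4.3.3, 6 libraries in 1 fit, reads within 2 Mb as library size, Benjamini-Hochberg), and chr5 windows with TMM and at least 10 reads in 2 libraries. For windows and fragments an SE is the absolute log2 fold change over the square root of the F statistic. For the log2 ratios of band reads it is the SE of the difference of group means, from the variances of the 2 libraries in each group. DESeq2 1.42.0 was an alternative. Band shares were compared by exact two-sided permutation tests with Python 3.11.15 and scipy 1.17.1. Procedures were tested on simulated data. The rule for named windows takes all that passed, the one for named fragments the 6 with lowest p, and gene names follow a list of 25. The members, lists and rules were chosen with earlier results of these data known. The planned test on gene spans was not run, because no hg19 gene positions were used. Differences between the 2 replicates of a group are the sole source of the error estimates. The edgeR fits pool them over the groups and moderate them across windows or fragments.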

Additional observations from a re-analysis of the deposited data

How the results depend on the processing

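The 12 window calls became 2 with TMM, 5 with DESeq2 size factors, 4 with chr5 reads, 2 with capped reads, and 0 with windows of 25 kb or with fragments with a read. With 1 library left out they ranged from 0 to 13, and with the replicate block they were 8, all among the 12. By replicate number the correlation of deviations was -0.22 between DKO and S1KO over 80 windows. With 2 replicates a group this cannot decide whether the numbers pair the libraries. A crossed block, which swaps the replicate numbers of DKO and was not planned, gave 14 calls. DESeq2 called 2 fragments and 18 chr5 windows, where edgeR called 0, and chr5 windows without TMM gave 2. Of 240 log2 values of the 12 named windows under alternatives, 236 kept their direction. The exceptions were, by fragments with a read, -0.074 (chr5:170652458-170702457), -0.12 (chr5:170852458-170902457) and -0.12 (chr5:170952458-171002457), and -0.15 with capped reads for the second. By fragments with a read a value below 0 cannot decide the direction, since the median over all 80 windows was -0.11.

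Band differences that changed sign, in reads per 1000, were -3.71 and -5.20 (10 to 100 and 100 to 250 kb above) with capped reads, where the log2 side ratio at 10 to 100 kb became -0.24. By fragments with a read they were -1.66 and -2.89 below and -1.66 and -3.83 above in these bands, the side ratio was 0, and the distance holding 50% of the reads above differed by 7.10 kb. The band 10 to 100 kb below, at 9.49, became -2.99 without 25 kb around the viewpoint and -4.88 without the fragment with most reads, and ran from -9.25 to 28.2 with 1 library left out. The band 1000 to 2000 kb below ran from -2.21 to 6.87. The cause was not tested for any of these. The bands beyond 250 kb above kept their direction under every alternative run. By fragments with a read the groups overlapped from 1000 to 2000 kb above. The gene-span test and its alternatives were not run. With 2 libraries a group and unequal depth, differences of single fragments were not resolved.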

Other observations

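Beside the viewpoint, inside the 10 kb left out of the main tests, 1 fragment went against its surroundings. The fragment chr5:170853014-170858278, adjacent to the viewpoint fragment, held 13.8 and 4.88 reads for every 1000 reads within 2 Mb in S1KO, 20.1 and 15.6 in EV, and 0.506 and 1.84 in DKO. The fragment beyond it, chr5:170858283-170862828, held 16.3 and 16.2 in S1KO, 28.7 and 31.4 in EV and 28.0 and 25.9 in DKO. The viewpoint fragment itself held 55.7 and 51.9 in S1KO and 204 and 72.3 in DKO. The first of these was singled out after its values were seen and was not tested on its own. Farther on, chr5:170866311-170873940 had 20 and 37 reads in S1KO and 5 and 6 in DKO, although fragments on both sides of it had over 1000 in each of these libraries. In EV it had 94 reads in replicate 1 and 0 in replicate 2, so low counts there were not particular to DKO.

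The labels give no position for silencer 2, so its removal was looked for as fragments without reads. This search cannot decide whether silencer 2 was removed. It left out the 10 kb around the viewpoint, and the interval chr5:170840932-170851907 was listed in no library. A fragment that was not captured also lacks reads, and an excision shorter than a fragment can leave some. No fragment within 2 Mb had at least 10 reads in both EV and both S1KO libraries and 0 in both DKO libraries. With EV left aside, 8 fragments had at least 10 reads in both S1KO libraries and 0 in both DKO libraries, the nearest 904 kb from the viewpoint, 4 of them on each side. The reverse, reads in both DKO and 0 in both S1KO libraries, held for 19 fragments, 15 below and 4 above the viewpoint, the nearest 386 kb away. The DKO libraries held more reads within 2 Mb, and the part of depth in these counts was not tested.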
